A study of Homo sapiens with 6 samples.

Results

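Transcripts of 9 genes, most of which write, copy or read CpG methylation, were followed in the human melanoma cell line A2058 after exposure to vitamin C. The genes were taken by symbol and not by their values, though with earlier results of these data known. They are the DNA methyltransferases DNMT1, DNMT3A and DNMT3B, the proteins UHRF1 and UHRF2, and the methyl-CpG binding domain proteins MBD1, MBD2, MBD3 and MBD4. Each of the 9 matched a single Ensembl gene among the 60675 of the count table. All 9 had enough counts to be among the 16353 genes tested. The treated group, VitC, was 3 samples given vitamin C at 100 µM for 48 h according to the sample labels, whereas the protocol text attached to all 6 samples gives 50 µM sodium ascorbate. The other group, Control, was 3 samples kept without it, in a medium whose formula holds no vitamin C. Medium was renewed daily. Both groups are the same unmodified line, grown in multi-well plates. By the study's methods the 3 samples of a group were 3 wells, so the p-values below measure the spread between wells of this line.

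In mammalian DNA, DNMT3A and DNMT3B place methyl groups on CpG sites that carry none, and DNMT1 copies existing marks onto the new strand after replication. UHRF1 recognises the sites that replication leaves methylated on the old strand only and brings DNMT1 to them. UHRF2 is its close relative, also described as a reader of 5-hydroxymethylcytosine. MBD1 and MBD2 bind methylated CpG and recruit repressors, MBD2 and MBD3 are alternative subunits of the NuRD deacetylase complex, and MBD4 is a DNA glycosylase that removes the thymine left where a methylated cytosine has lost its amino group. Vitamin C is a cofactor of the TET enzymes, which oxidise 5-methylcytosine, and the study used RNA-seq to ask which transcripts change when vitamin C is supplied.

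On GRCh38, as GENCODE 29 draws the genes, DNMT1 (ENSG00000130816) lies on chromosome 19 from 10133345 to 10231286 and DNMT3A (ENSG00000119772) on chromosome 2 from 25227855 to 25342590, both on the minus strand, and DNMT3B (ENSG00000088305) on chromosome 20 on the plus strand. UHRF1 (ENSG00000276043, chromosome 19, 4903080 to 4962154) and UHRF2 (ENSG00000147854, chromosome 9, 6413151 to 6507054) lie on the plus strand. The MBD genes lie on the minus strand: MBD1 (ENSG00000141644, chromosome 18, 50266882 to 50281774), MBD2 (ENSG00000134046, chromosome 18, 54151601 to 54224788), MBD3 (ENSG00000071655, chromosome 19, 1573596 to 1592801) and MBD4 (ENSG00000129071, chromosome 3, 129430944 to 129440179).

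Library totals ran from 20944956 to 32549362 counts in VitC samples and from 16248869 to 41884588 counts in Control samples. VitC replicate 3 stood somewhat apart: chi-square over its degrees of freedom, from counts of all genes, was 9.38 and 9.64 between it and the other VitC samples, against 2.59 to 5.94 for the other pairs of samples of a group, so results that rest on it are also given without it. All 10 melanocyte lineage markers examined averaged at least 1 CPM (counts divided by the library total in units of 1e+06, scaled by TMM), and their summed level was 3180 to 3330 CPM in VitC samples and 3360 to 3510 CPM in Control samples. The sum hides opposite moves. MLANA was 14.6 to 15.9 CPM in VitC and 1.22 to 1.79 CPM in Control samples. PMEL and TYR also lay higher in VitC samples. DCT lay lower, at 1190 to 1280 CPM in VitC and 1460 to 1550 CPM in Control samples. The ranges of the other melanocyte markers overlapped. Markers of other cell types were low. The summed level of 8 blood cell markers was 13.7 to 15.8 CPM in VitC and 12.6 to 14.5 CPM in Control samples, nearly all of it LYZ and LAPTM5, and the hemoglobin gene HBA1 had 0 counts in every library. For 5 epithelial markers the sum was 2 to 2.67 CPM in VitC and 1.42 to 1.61 CPM in Control samples, for 4 endothelial markers 15.8 to 16.8 CPM in VitC and 7.74 to 8.6 CPM in Control samples, and for 5 fibroblast markers 10.9 to 14.1 CPM in VitC and 8.96 to 11.1 CPM in Control samples. The part of these markers in the results was not tested.

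Of the 9 genes, 3 were higher with vitamin C and none was lower. DNMT3A, UHRF2 and MBD4 each rose by about the same small amount, 14.1%, 15.5% and 15.5%. The maintenance pair DNMT1 and UHRF1, the repressor subunits MBD2 and MBD3, and DNMT3B and MBD1 did not pass the test. A call here means edgeR's quasi-likelihood test with Benjamini-Hochberg adjustment over all 16353 genes tested, at a threshold of 0.05. Of those genes 11.2% were called in either direction, 6.09% higher and 5.09% lower with vitamin C. For the 3 genes that rose, and for no other of the 9, the groups did not overlap. Over all genes tested, 15.6% lay apart in that direction and 14.9% in the other, 30.6% in all. DESeq2 and limma-voom each called 3 higher and 0 lower, 11.3% of all genes in either tool. At an unadjusted p under 0.05 in edgeR the counts were again 3 and 0, where 25.7% of all genes lay under that limit. In a culture of cells, more RNA per cell and more cells that express a gene cannot be told apart.

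**Figure D1:**
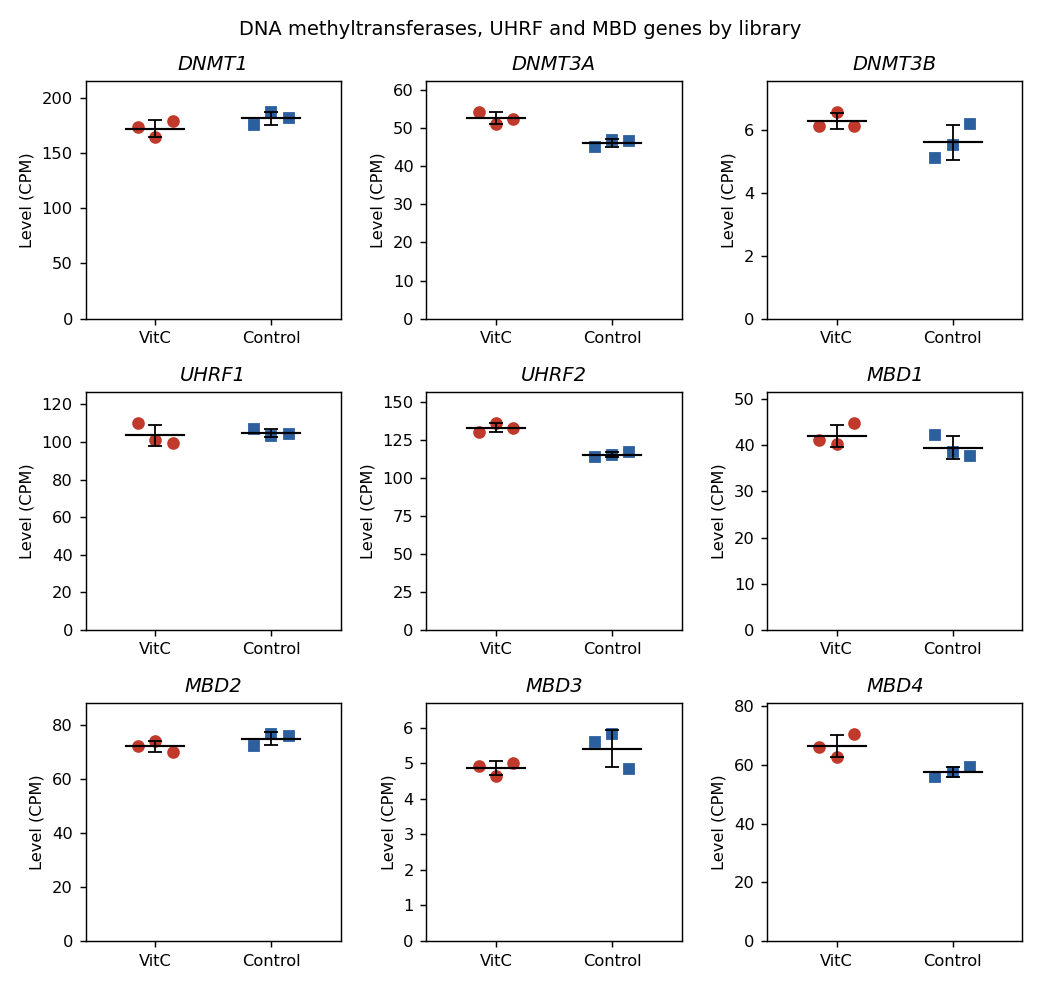
Level of each of the 9 genes in CPM (y axes, starting at 0) in the 3 VitC libraries (red circles, left) and the 3 Control libraries (blue squares, right), with the mean (line) and SD (bar). For DNMT3A, UHRF2 and MBD4 every VitC library lies above every Control library, and for the other 6 genes the groups overlap.

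DNMT3A, a de novo methyltransferase, had levels of 54.2, 51.1 and 52.4 CPM in VitC replicates 1, 2 and 3, against 44.9, 46.8 and 46.6 CPM in Control replicates 1, 2 and 3. The lowest VitC sample lay above the highest Control sample. The means were 52.6 ± 1.58 CPM in VitC samples and 46.1 ± 1.03 CPM in Control samples (SD, n = 3 each). The log2 fold change was 0.19 (standard error 0.0555, 95% interval 0.07 to 0.31, edgeR adjusted p = 0.043). This call lay close to the threshold. It was lost when any library other than VitC replicate 3 was left out (edgeR adjusted p = 0.078 to 0.16, log2 fold change 0.17 to 0.21) and held without VitC replicate 3 (adjusted p = 0.03). With upper quartile scaling the adjusted p was 0.05 and with no filter on low counts it was 0.072.

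The other de novo enzyme, DNMT3B, was far lower. It had 157, 216 and 128 counts in VitC samples and 213, 148 and 100 counts in Control samples, or 6.14, 6.57 and 6.11 CPM in VitC against 5.11, 5.51 and 6.19 CPM in Control samples. Control replicate 3 lay among the VitC samples, so the groups overlapped. The log2 fold change of 0.18 was close to that of DNMT3A, but its 95% interval ran from -0.07 to 0.44 (edgeR adjusted p = 0.36). Counting error alone is 6.8% even at its highest count of 216, against 2.31% for DNMT3A at 1871 counts, and the interval of DNMT3B includes both 0 and the log2 fold change of DNMT3A.

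DNMT1, the maintenance enzyme and the most counted of the 9 genes, had 173, 164 and 179 CPM in VitC samples against 175, 187 and 182 CPM in Control samples. VitC replicate 3 lay between the Control samples. The log2 fold change was -0.08 (standard error 0.0485, edgeR adjusted p = 0.36), with a 95% interval from -0.18 to 0.03. Counts of 2940 to 7307 stood behind these values.

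UHRF1, the partner of DNMT1, had 110, 101 and 99.4 CPM in VitC samples and 107, 103 and 104 CPM in Control samples. The highest and the lowest value both came from VitC samples. Its log2 fold change was -0.02 (95% interval -0.13 to 0.10, edgeR adjusted p = 0.89), the nearest to 0 among the 9 genes. UHRF2 gave the firmest difference of the set. It had 130, 136 and 133 CPM in VitC samples against 114, 115 and 117 CPM in Control samples, with no overlap. The means were 133 ± 2.61 CPM in VitC and 115 ± 1.58 CPM in Control samples (SD, n = 3 each). The log2 fold change was 0.21 (standard error 0.045, 95% interval 0.11 to 0.30, edgeR adjusted p = 0.0094). The call held without each library in turn (edgeR adjusted p = 0.004 to 0.048), except without Control replicate 2, where the adjusted p was 0.055 and the log2 fold change 0.20.

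Among the MBD genes, the glycosylase MBD4 was higher with vitamin C. Its levels were 65.9, 62.8 and 70.4 CPM in VitC samples against 55.8, 57.5 and 59.2 CPM in Control samples, again with no overlap. The log2 fold change was 0.21 (standard error 0.0581, 95% interval 0.08 to 0.33, edgeR adjusted p = 0.035). The call held without VitC replicate 2 or 3 (adjusted p = 0.04 and 0.049) and was lost without VitC replicate 1 or any Control replicate (adjusted p = 0.067 to 0.14, log2 fold change 0.18 to 0.23). In GENCODE 29, 4.29% of the exon bases of MBD4 lie opposite IFT122, a gene on the other strand. The sources used here do not say whether strand was used in counting, and reads of the shared stretch cannot be assigned without it. IFT122, named after its values were seen, had 456, 619 and 435 counts in VitC samples and 721, 450 and 269 counts in Control samples, a log2 fold change of 0.17 (edgeR adjusted p = 0.18).

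MBD2, the methyl-CpG reader of NuRD, had 72.1, 74 and 70 CPM in VitC samples and 72, 76.5 and 75.9 CPM in Control samples. The groups overlapped, with a log2 fold change of -0.05 (95% interval -0.16 to 0.06, edgeR adjusted p = 0.59). MBD3, its alternative in NuRD, was the least counted gene. It had 126, 153 and 105 counts in VitC samples and 233, 156 and 78 counts in Control samples, or 4.93, 4.65 and 5.01 CPM in VitC against 5.59, 5.81 and 4.83 CPM in Control samples. Control replicate 3 lay among the VitC samples, and the log2 fold change of -0.17 had a 95% interval from -0.44 to 0.10 (edgeR adjusted p = 0.43). Of its exon bases, 9.78% are shared with AC005943.1 on the same strand, an overlapping gene that had 0 counts in all 6 libraries. MBD1, a repressor, had 41.2, 40.3 and 44.8 CPM in VitC samples and 42.3, 38.6 and 37.6 CPM in Control samples. Control replicate 1 lay between the VitC samples. The MBD1 log2 fold change was 0.09 (95% interval -0.06 to 0.23, edgeR adjusted p = 0.47).

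**Figure D2:**
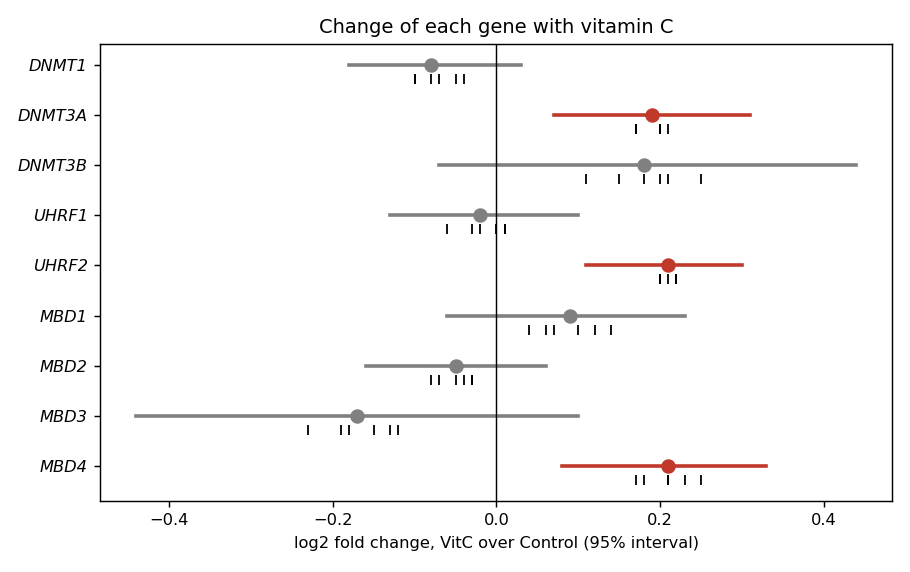
Log2 fold change of VitC over Control (x axis) for each gene, with the 95% interval (line) and, as black ticks under it, the values with each library left out in turn. The intervals of DNMT3A, UHRF2 and MBD4 (red, adjusted p under 0.05) lie above 0, from 0.07, 0.11 and 0.08, and those of the other genes (gray) include 0.

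The start regions of the 3 genes that rose are shown because they are themselves rich in CpG, the substrate of these proteins. Each is 250 bases before to 50 after the start in RefSeq on GRCh38.p14, 5′ to 3′ along the gene, with every CpG in capitals. For DNMT3A, with 6 such windows, the one listed first was taken.
DNMT3A (chr2:25342434-25342733, minus strand): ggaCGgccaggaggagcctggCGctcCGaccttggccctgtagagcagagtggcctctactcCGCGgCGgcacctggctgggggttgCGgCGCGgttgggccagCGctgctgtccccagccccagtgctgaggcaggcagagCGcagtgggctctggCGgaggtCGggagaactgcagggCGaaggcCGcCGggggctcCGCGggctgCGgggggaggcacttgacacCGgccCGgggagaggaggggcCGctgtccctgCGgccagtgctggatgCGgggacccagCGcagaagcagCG
UHRF2 (chr9:6412949-6413248, plus strand): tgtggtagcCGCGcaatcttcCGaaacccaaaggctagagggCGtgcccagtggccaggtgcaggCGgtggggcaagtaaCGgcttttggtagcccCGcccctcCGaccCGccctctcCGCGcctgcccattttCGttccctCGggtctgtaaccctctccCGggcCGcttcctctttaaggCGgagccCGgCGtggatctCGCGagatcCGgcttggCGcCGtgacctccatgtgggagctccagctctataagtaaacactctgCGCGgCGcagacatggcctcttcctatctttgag
MBD4 (chr3:129439899-129440198, minus strand): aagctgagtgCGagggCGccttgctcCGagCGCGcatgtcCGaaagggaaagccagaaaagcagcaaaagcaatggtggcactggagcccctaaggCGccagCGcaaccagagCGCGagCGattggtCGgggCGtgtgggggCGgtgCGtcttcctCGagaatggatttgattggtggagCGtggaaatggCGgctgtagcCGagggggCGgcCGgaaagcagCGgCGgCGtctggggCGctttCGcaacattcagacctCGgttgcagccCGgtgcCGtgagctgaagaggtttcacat
These windows held 26, 26 and 29 CpG in DNMT3A, UHRF2 and MBD4. Across the 6 windows of DNMT3A the number ran from 18 to 46. The median over the first listed windows of 27305 genes was 14 CpG, with quartiles of 3 and 28. High CpG content was not particular to the genes that rose, since DNMT1, UHRF1, MBD1, MBD2 and MBD3 had 30, 36, 27, 32 and 40 CpG. The window listed for DNMT3B had 3 CpG, and it lies inside the gene as GENCODE 29 draws it, on chromosome 20 from 32762385 to 32809356. So do those of DNMT1 (chr19:10194904-10195203) and UHRF1 (chr19:4909251-4909550), in genes drawn from 10133345 to 10231286 and from 4903080 to 4962154.

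DNMT1 and UHRF1 are known as S-phase genes, and E2F factors drive many genes of that phase. The windows were therefore searched on both strands for the E2F-type letters TTTCCCGC, TTTGGCGC and TTTCGCGC. DNMT1 and UHRF1 each held 1 match and the first windows of the other 7 genes none, where 2.79% of the windows of all genes held at least 1. The 30 bases around each match are shown with the match, here the reverse complement of the searched letters, in capitals.
DNMT1 (chr19:10194937-10194966, minus strand): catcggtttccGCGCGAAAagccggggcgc
UHRF1 (chr19:4909476-4909505, plus strand): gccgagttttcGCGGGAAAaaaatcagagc
A match is a run of letters and not a measured site, and neither of these genes passed the test.

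Levels were compared between genes per kb of exon, as CPM divided by the summed length of the exons in GENCODE 29. In VitC samples the order was UHRF1 (20.1 ± 1.16 CPM per kb), MBD4 (19.8 ± 1.14), DNMT1 (17.6 ± 0.782), UHRF2 (13.4 ± 0.263), MBD2 (12.4 ± 0.346), MBD1 (6.25 ± 0.349), DNMT3A (4.37 ± 0.132), DNMT3B (1.35 ± 0.0548) and MBD3 (0.62 ± 0.0242; SD, n = 3). In Control samples it was UHRF1 (20.3 ± 0.36 CPM per kb), DNMT1 (18.5 ± 0.599), MBD4 (17.1 ± 0.513), MBD2 (12.9 ± 0.424), UHRF2 (11.6 ± 0.16), MBD1 (5.86 ± 0.369), DNMT3A (3.84 ± 0.0856), DNMT3B (1.21 ± 0.117) and MBD3 (0.69 ± 0.0658; SD, n = 3). UHRF1, DNMT1 and the glycosylase MBD4 thus stood at the top and the de novo enzymes near the bottom in both groups. The samples of neighbouring genes in these orders did not overlap, except UHRF1 and MBD4 in VitC samples. MBD4 stood above DNMT1 and UHRF2 above MBD2 in VitC samples, and both pairs had the opposite order in Control samples. The order of the upper 5 genes, and both of these switches, depend on which exons are counted as a gene's length. Divided by the longest annotated transcript, UHRF2 had 35.8 CPM per kb in VitC and 31 in Control samples, DNMT1 had 31.9 in VitC and 33.6 in Control samples, and MBD4 had 26.8 in VitC and 23.2 in Control samples. On that scale UHRF1 had 24 CPM per kb in VitC and 24.3 in Control samples, the place 4 in VitC and 3 in Control samples, and MBD2 had 13.9 in VitC and 14.4 in Control samples. DNMT1 then stood above MBD4, and UHRF2 above MBD2, in both groups. MBD1, DNMT3A, DNMT3B and MBD3 kept their places with either length.

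**Figure D3:**
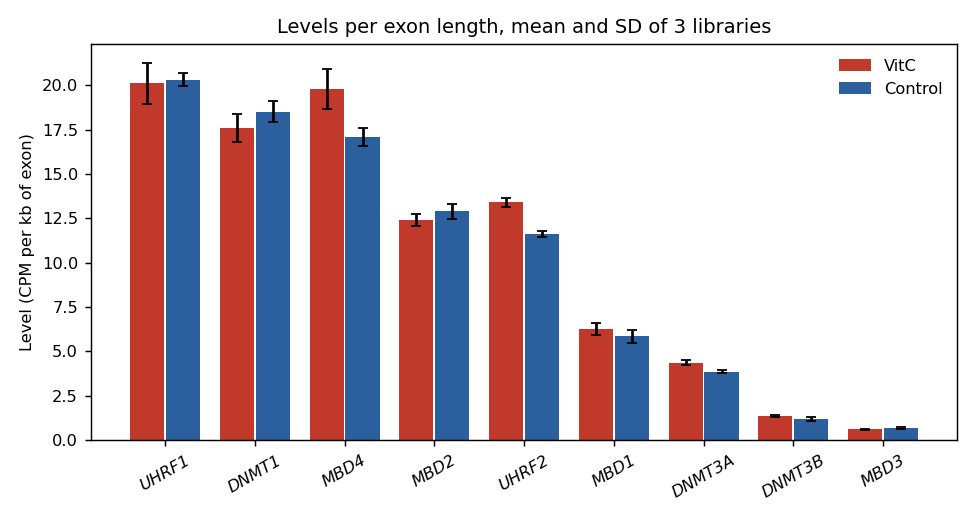
Level of each gene in CPM per kb of exon (y axis, from 0), mean and SD of 3 VitC (red, left) and 3 Control (blue, right) libraries, in the order of the Control means. With this length UHRF1 stands highest and MBD4 lies above DNMT1 in VitC samples only, neither of which holds with the longest transcript as length. MBD3 stands lowest in both groups with either.

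The make-up of each family was then described per kb of exon within each library, a measure that no library scaling can move. It was chosen after the values above were seen and uses the same counts, so no test was made. Shares within a family are not independent, since a rise of any share lowers the rest. DNMT1, UHRF1, MBD2 and MBD3 did not pass the test by their own levels, which overlapped between the groups. By level, 30.6% of all genes tested lay apart. How often shares of other genes lie apart was not counted. Shares that lie apart below are therefore not taken as further differences between the groups. DNMT1 made up 75.2%, 74.7% and 76.3% of the summed DNMT level in VitC samples, against 78.7%, 79.0% and 78.1% in Control samples. DNMT3A made up 19.2%, 18.9% and 18.2% in VitC samples and 16.4%, 16.1% and 16.3% in Control samples. Neither share overlapped between the groups. The DNMT3B share did, at 5.5% to 6.32% in VitC and 4.85% to 5.62% in Control samples. Within the MBD family, MBD4 took 50.6%, 49.2% and 52.0% in VitC samples against 46.2%, 46.6% and 47.8% in Control samples, and MBD2 took 32.0%, 33.5% and 29.9% in VitC samples against 34.4%, 35.8% and 35.4% in Control samples. Both shares lay apart between the groups, as did that of MBD3 (1.56% to 1.62% in VitC and 1.67% to 2.01% in Control samples), while the MBD1 share was 15.7% to 16.5% in VitC and 15.1% to 17.4% in Control samples. Of the summed level of UHRF1 and UHRF2, UHRF1 made up 62.0%, 58.9% and 59.0% in VitC samples against 64.3%, 63.5% and 63.1% in Control samples, also apart. All of these percentages depend on the length taken for each gene. Per kb of the longest annotated transcript, UHRF2 stood above UHRF1 in both groups. UHRF2 and UHRF1 then had 35.8 and 24 CPM per kb in VitC samples, and 31 and 24.3 in Control samples.

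Relatives with shared roles were compared by the ratio of their counts within a library, over 5 pairs. Only UHRF1 over UHRF2 lay apart between the groups. It was 0.846, 0.742 and 0.745 in VitC samples against 0.933, 0.901 and 0.885 in Control samples, a difference of -0.22 on the log2 scale (p = 0.1, two-sided exact permutation test, adjusted over the 5 ratios 0.5). With 3 samples a group, 0.1 is the smallest p this test can give, so no ratio could pass 0.05. The UHRF1 over UHRF2 ratio restates the UHRF1 share above from the same counts and is not a second result. How often ratios of other genes lie apart was not counted. DNMT3A over DNMT3B was 8.83, 7.78 and 8.57 in VitC samples and 8.78, 8.49 and 7.53 in Control samples, a log2 difference of 0.02 (exact permutation p = 0.6). Since no ratio could pass 0.05, this test cannot decide whether the rise of DNMT3A differs from the change of DNMT3B. The log2 differences of DNMT1 over UHRF1, MBD2 over MBD3 and MBD1 over MBD4 were -0.06, 0.10 and -0.11 (exact permutation p = 0.4, 0.4 and 0.3).

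**Figure D4:**
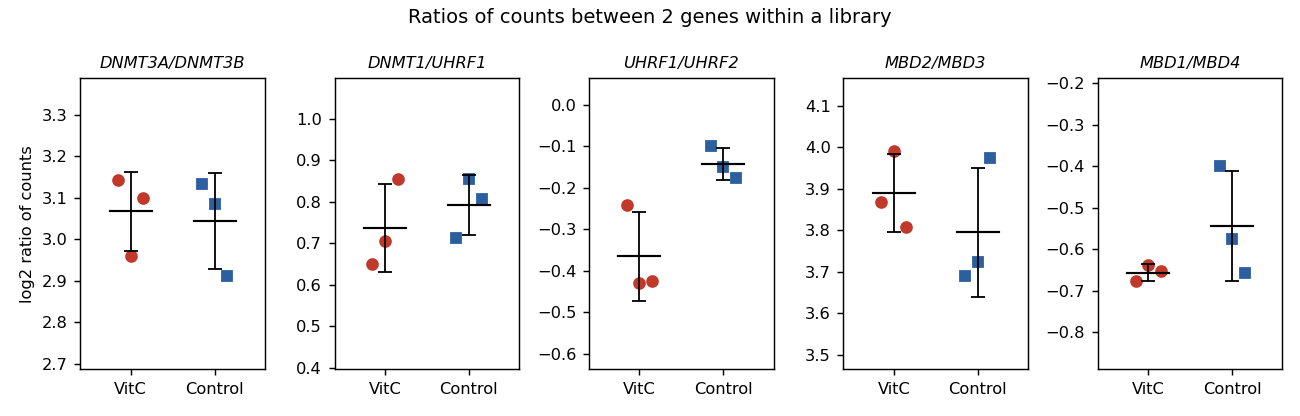
Log2 ratio of the counts of 2 genes within each library (y axes, all of the same span) for 5 pairs, with VitC libraries in red at left and Control libraries in blue at right, mean (line) and SD (bar). UHRF1/UHRF2 has its 3 VitC libraries below its 3 Control libraries, and the other pairs overlap.

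Genes that work with these proteins, or are related to them, were counted in 8 lists. Of 110 genes listed, 97 could be tested and 14 were called, 14.4% beside 11.2% of all genes. A list of germline genes, with 4 of these calls, stands among the other observations and the remaining 7 lists follow. The germline list holds genes put there with their rises known, or testable only through their VitC counts, so 14.4% does not show an excess. Of 10 other methyl-CpG and MBD-fold proteins, SETDB2 was higher, BAZ2A was lower and 8 did not pass the test. SETDB2, a histone methyltransferase with an MBD-like domain, had 90.3, 87.4 and 90.2 CPM in VitC samples against 63.5, 64.5 and 63.6 CPM in Control samples. Its log2 fold change of 0.48 (edgeR adjusted p = 3.2e-05) was larger than that of any of the 9 genes. BAZ2A, a subunit of a nucleolar silencing complex, had a log2 fold change of -0.26 (edgeR adjusted p = 0.011). The list had a median log2 fold change of -0.01, beside -0.004 for all genes tested.

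NuRD, the complex that holds MBD2 or MBD3, had no subunit that passed the test among 12 measured. Of these, 3 had an unadjusted p under 0.05 in edgeR, where 25.7% of all genes lay under that limit. DESeq2 and limma-voom also called 0 after adjustment. As only 11.2% of all genes tested were called, 0 of 12 is not read as a trait of NuRD. The list median was -0.05, and its subunits lay between -0.33 for GATAD2B and 0.11 for RBBP4. CHD4, the ATPase of the complex, had 679 ± 44.3 CPM in VitC and 679 ± 6.78 CPM in Control samples (SD, n = 3 each). Of the exon bases of CHD4, 46.9% are shared with AC006064.6 on the same strand, so its level may cover only part of the gene. Of 11 partners of maintenance methylation, 1 was lower and 10 did not pass the test (list median 0.01). The lower gene was CDCA7, an activator of the remodeler HELLS, with a log2 fold change of -0.26 (edgeR adjusted p = 0.022). HELLS itself had 0.04 (adjusted p = 0.71). For de novo methylation 8 listed genes were measured, partners and the DNMT relative TRDMT1. KDM1B, a histone demethylase needed for methylation of imprinted genes in mouse oocytes, was higher (log2 fold change 0.22, edgeR adjusted p = 0.044). The other 7 did not pass (list median -0.06).

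Of 17 measured genes of 5mC oxidation and base excision repair, which include the downstream partners of MBD4, 1 was higher, 1 was lower and 15 did not pass the test (list median 0.04). TET1, which oxidises 5-methylcytosine, had 45, 47.2 and 38.9 CPM in VitC samples against 55.5, 62.8 and 56.3 CPM in Control samples. It fell by 0.41 on the log2 scale (edgeR adjusted p = 0.0035). The repair polymerase POLB rose, with a log2 fold change of 0.24 (edgeR adjusted p = 0.037), and the other thymine glycosylase, TDG, had -0.02 (adjusted p = 0.88). Of 13 measured genes of the methyl donor cycle, AHCYL1 was higher (log2 fold change 0.21, edgeR adjusted p = 0.01) and 12 did not pass (list median 0.02). AHCYL1 is related to the enzyme AHCY but is known mainly as a regulator of calcium release. MAT2A, which makes the methyl donor, had 0.04 (adjusted p = 0.65).

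DNA replication genes were counted because DNMT1 and UHRF1 are expressed with them. Of 20 measured, 1 was higher, 2 were lower and 17 did not pass the test (list median -0.03). The proliferation marker MKI67 had 401, 356 and 349 CPM in VitC samples against 481, 513 and 495 CPM in Control samples, a fall by 0.43 on the log2 scale (edgeR adjusted p = 2.2e-04). In its cell growth assay, the paper saw no evident effect of physiological vitamin C concentrations on A2058 cells. CCNE1, cyclin E1, fell by 0.24 (adjusted p = 0.027), and GINS1, a subunit of the replicative helicase, rose with 0.19 (adjusted p = 0.033). RRM1 and TOP2A had log2 fold changes of 0.01 and 0.03. The calls of BAZ2A, CDCA7, KDM1B, POLB, AHCYL1, CCNE1 and GINS1 were each lost without at least 1 of the 6 libraries, with adjusted p-values of up to 0.16, while those of SETDB2, TET1 and MKI67 held in each such fit.

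**Figure D5:**
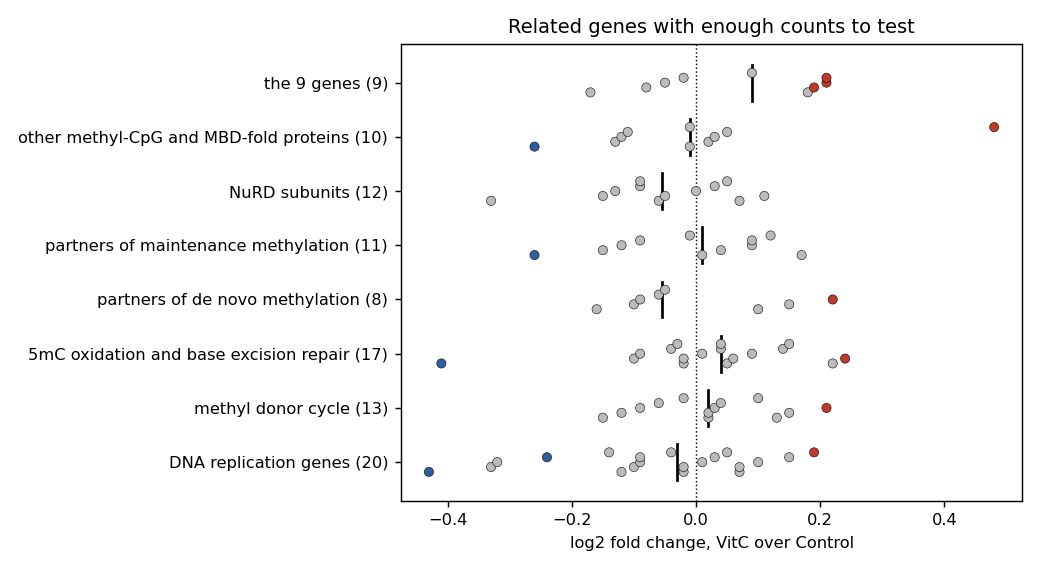
Log2 fold change of VitC over Control (x axis) for the 9 genes and for each measured gene of 7 related lists (rows, number of genes in parentheses), with the median as a black line. Genes past the threshold of 0.05 on the adjusted p are drawn in red (higher) or blue (lower), the rest in gray. The 9 genes hold 3 red points near 0.2, and the 12 NuRD subunits hold none.

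The genes whose level followed each risen gene most closely over the 6 libraries were APPBP2, TEX30 and DYNC1LI2 for DNMT3A (Pearson r = 0.9975, 0.9947 and 0.9943 of log2 CPM), UTP15, ST6GALNAC2 and LSR for UHRF2 (0.998, 0.9965 and 0.9959) and DNAJB9, TM4SF1 and CEP131 for MBD4 (0.9987, 0.9947 and 0.9944). They are the closest of 12784 genes compared, and the points share the 2 groups and the 6 libraries, so r is given as a description only. Their log2 fold changes lay between 0.17 for DYNC1LI2 and DNAJB9 and 0.62 for LSR.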

How the data were processed

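RNA-seq of 6 samples, 3 VitC and 3 Control, was used. The deposited values are raw counts of reads per gene, which the authors made from ribosome-depleted, paired-end libraries. The paper names STAR, HTSeq and GENCODE v19, while the submitters' processing notes name STAR, hg38, CASAVA 1.4 and Trim Galore. HTSeq as the counting tool is thus known from the paper only. The 6 single-sample tables equal the series table. Of 60675 gene identifiers, 57055 are in GENCODE 29 (GRCh38), used here for symbols, coordinates and exon lengths, and promoter windows are from RefSeq.

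Differences were fitted with edgeR 4.0.16 under R 4.3.3 (filterByExpr, TMM, quasi-likelihood test, no other term), and p-values were adjusted over the 16353 genes tested. Alternatives were other scalings and filters, DESeq2 1.42.0, limma-voom (limma 3.58.1), the replicate number as a block and each library left out. Code was tested on simulated data. The 9 genes, the lists and the tests were chosen with earlier results of these data known. Named genes are the 9, up to 4 called genes with the smallest p of each related list, and the 3 closest in pattern with at least 1 CPM. Others are named beside them for their role. The values of 1 gene of the related lists are not reported here.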

Additional observations from a re-analysis of the deposited data

How the results depend on the processing

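The count of 3 of the 9 genes was 3 with RLE scaling, library size alone, at least 10 counts in every library, DESeq2 (11.3% of its 15084 genes called) and limma-voom, and the same 3 genes were called. It was 2 with upper quartile scaling, with no filter and with the replicate block, each time without DNMT3A. With each library left out it ranged from 0 (without Control replicate 2) to 3, the related genes called from 5 to 15, against 14, and all genes called from 964 to 2095, against 1829. These fits have fewer samples. The log2 fold change of UHRF1 ranged from -0.06 to 0.01 with each library left out, with a change of sign without VitC replicate 2 or 3 (0.01 each time). No other of the 9 genes changed sign in any fit. The log2 difference of DNMT3A over DNMT3B ranged from -0.04 (without Control replicate 3) to 0.08 and was -0.01 without VitC replicate 1. The cause was not tested. The other ratios kept their sign.

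The labels do not say what a replicate number marks. Deviations of same-numbered VitC and Control samples from their group means correlated with 0.123, -0.0237 and 0.0915 for replicates 1, 2 and 3. VitC replicates 1 and 3 correlated best with their own number (at most -0.0435 and 0.0764 with another) and VitC replicate 2 with another (0.108), so the numbers were not taken to pair the samples. With the replicate block, 1913 genes were called and DNMT3A had an adjusted p of 0.054, and the ratios gave exact p-values of 0.25 to 0.75, with 0.25 the smallest possible. DNMT3B and MBD3 rest on 78 to 233 counts a library and had the widest intervals of the 9 genes. What change could be detected at that depth was not tested.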

Other observations

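A list of 15 germline genes that promoter methylation is known to keep silent outside the germline gave 6 genes with enough counts to test. GTSF1, a factor of the germline small RNA pathway, had 11, 14 and 15 counts in VitC samples against 5, 3 and 0 in Control samples (edgeR adjusted p = 0.014, and 0.05 and 0.052 without Control replicate 1 or 2), while DESeq2 gave it no adjusted p. The melanoma antigen PRAME had 55.9, 55.4 and 49.1 CPM in VitC samples and 48.6, 43 and 43.6 CPM in Control samples, a log2 fold change of 0.24 (edgeR adjusted p = 0.038). That call was lost without VitC replicate 1 or 2 or Control replicate 2 or 3 (adjusted p = 0.11 to 0.16). MAGEA1 had 63.4 ± 6.21 CPM in VitC and 65.1 ± 2.17 CPM in Control samples (SD, n = 3 each, edgeR adjusted p = 0.77). SYCP3, of meiotic chromosomes, had a log2 fold change of 0.82 (adjusted p = 0.17). HORMAD1 and MAGEA4, put on the list with their rises already known, had 60, 64 and 38 against 1, 6 and 1 counts (HORMAD1, VitC against Control samples) and a log2 fold change of 0.81 (MAGEA4). Genes such as GTSF1 and HORMAD1 could be tested only because of their counts in VitC samples, so the number called on this list says nothing about its genes as a whole. Methylation of DNA was not analysed here.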
